A study of Mus musculus with 32 samples.

Results

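XEN cells in which XRR was knocked out were compared with wild-type XEN cells, gene by gene and allele by allele along the X chromosome. XEN cells are stem cell lines of the extraembryonic endoderm, and both groups carry the X chromosomes of a cross between 129S1/SvImj and JF1/Ms. Reads over strain-specific bases are what allow expression to be split between the active X (Xa) and the inactive X (Xi). The labels give 3 WT samples and 2 XRR KO samples, each of the latter from a clone of its own (clone 1 and clone 2), out of 32 samples in 12 groups. They name no drug or agent for either group, do not describe the deleted segment, and do not say whether XRR was removed from Xa, from Xi or from both. In the study's usage XRR stands for an Xist regulatory region. Groups used beside them are XistpA (4 samples) and XRRa_KO (3), XRRb_XaKO and XRRc_XaKO (2 each), and DMSO-treated cells with a Rad21 degron (4) or a Ctcf degron (2), a tag for induced protein loss. Nothing in the labels says that the samples of a group are separate cultures.

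The deposited table lists 953 X-linked genes with 1 FPKM value (fragments scaled to transcript length and library size) for each group and allele, merged over the samples of the group. Members are the 270 genes with a mean of at least 1 FPKM, alleles added up, over the table's WT, XistpA, XRR_KO and XRRa_KO groups. Of the 683 others, 492 stood at 0 in all 8 columns. Nearest to the limit, Wdr44 (1.02 FPKM), Xlr4a (1.05) and Gprasp2 (1.08) were inside it, and Ribc1 (0.927) and Hdx (0.909) were outside. Only 4 members had less than 1 FPKM in WT, among them Rragb, which rose on Xi. Rragb and Itm2a, which rose on Xa, averaged less than 1 FPKM over the other 3 groups and are members only through their XRR_KO values, so they had to differ. Wdr44 also averaged less than 1 FPKM over those groups but passed no size rule. Conversely, Xlr4a, which fell on Xa, averaged less than 1 FPKM without WT and is a member only through its WT value. With a single merged value per group there is no replicate spread, so neither an SD nor a test can be given, and whether a value holds for both clones cannot be told from it. The sequencing depth behind the values is unknown. A gene is said to have risen or fallen when its log2(FPKM + 0.5) changed by at least 1; the added 0.5 makes this scale compress changes of weakly expressed genes. The usual defining markers of XEN cells are autosomal, so the labelled cell type was not checked here.

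In female mammalian cells 1 X chromosome is silenced by Xist, a noncoding RNA that is transcribed from the future inactive X and coats it. Tsix is the antisense transcript of Xist, and the ubiquitin ligase gene Rlim (Rnf12), which lies beside them, encodes an activator of Xist. A minority of genes, called escape genes, stay expressed from Xi, usually below the level of Xa. In the mouse extraembryonic endoderm the inactivated X is the paternal one, because inactivation there is imprinted.

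The level of Xist was much lower in the knockout. Xist stood at 15.5 FPKM on Xi in WT and at 1.18 FPKM in XRR_KO (log2 change -3.25), with 0.0339 and 0.0225 FPKM on Xa. The remaining Xist RNA was still almost all from Xi, with an Xi share of 98.1% of Xa plus Xi FPKM against 99.8% in WT. In the 2 other groups of the table, Xist on Xi was at 7.86 FPKM in XRRa_KO and listed at 0 in XistpA. Tsix in WT had 31.2 FPKM, all of it from Xi, and in XRR_KO 0.503 FPKM, all of it from Xa. Annotated exons of Xist and Tsix overlap on opposite strands, and the libraries keep no strand. Reads from the shared bases therefore cannot be assigned to 1 of the 2 genes. The switch of Tsix from Xi to Xa between the columns is therefore a description of the listed values. Signal of Tsix on Xa was not particular to XRR_KO. In columns normalised separately it had 7.06 FPKM on Xa in XRRc_XaKO and 1.11 FPKM in Ctcf DMSO, and 0 in XRRb_XaKO and Rad21 DMSO. With a pseudocount of 1 its Xa change in XRR_KO was 0.588.

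Genes around Xist differed from one another. Of the 10 nearest tested genes on each side, 3 of 20 rose on Xi (15%, beside 15.9% of all tested genes), namely Cited1, Cox7b and Pgk1, the last with near-identical copies elsewhere. The closest ones stayed silent. Chic1 and Nap1l2 on the Tsix side, and Rlim on the other, were all listed at 0 on Xi in XRR_KO. On Xa, Rlim had 14.0 FPKM in WT and 27.3 FPKM in XRR_KO (0.94), just short of the size rule, while Chic1 (2.17 and 2.45 FPKM) and Nap1l2 (1.93 and 2.04 FPKM) differed little. Ercc6l, a mitotic DNA translocase gene, had 2.80 and 5.68 FPKM on Xi. Atp7a, a copper transporter gene, went from a listed 0 to 0.466 FPKM, and the known escape gene Pbdc1 had 14.3 and 16.3 FPKM.

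Beside the lower Xist, 43 genes rose on Xi (15.9% of the 270) and 3 fell (1.11%), the other besides Tsix and Xist being the RNA methyltransferase gene Ftsj1, from 5.37 to 2.40 FPKM. Any difference on Xi at all was upward for 128 genes and downward for 34, and 108 genes were listed at 0 on Xi in both columns. In WT 178 genes had a listed 0 on Xi and could only stay or rise; 70 were above 0 in XRR_KO and 16 passed the size rule. Of the 92 genes above 0 in WT, 27 rose and 15 were listed at 0 in XRR_KO. The count of rises depends on the pseudocount, with 69 genes at 0.1 and 32 at 1, and was 28 with a size rule of 1.5. Most genes of the X had little or no Xi signal in either column, since 92 of the 270 reached an Xi share of 1% in XRR_KO and 49 in WT.

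**Figure D1:**
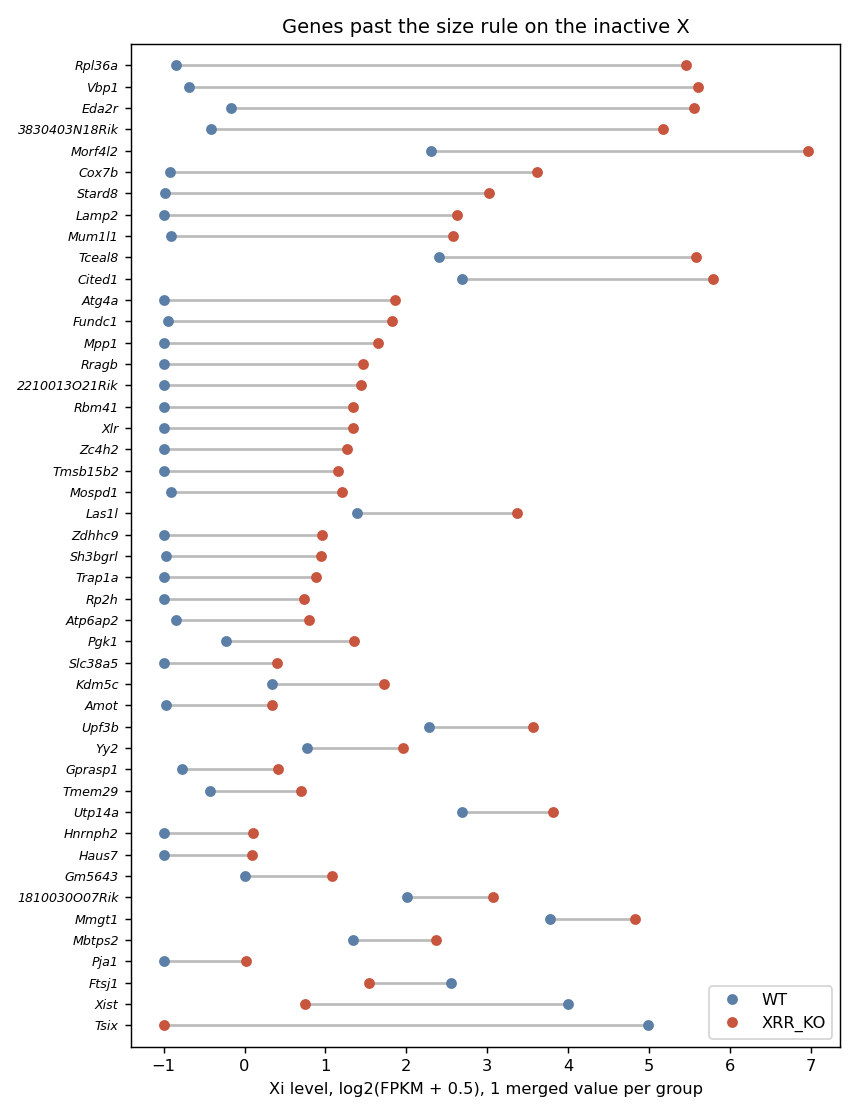
Level on Xi in WT (blue) and XRR_KO (red) of the 46 genes past the size rule, on the log2(FPKM + 0.5) scale with 1 merged value per group and no error. Rpl36a and Vbp1 have the longest upward lines, while Ftsj1, Xist and Tsix run the other way; values of -1 are genes listed at 0.

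The leading genes illustrate how far silent genes moved. The promoters of the 3 largest rises among genes without a near-identical copy on another chromosome are shown with that of Xist. Each is the 250 bases before the start of the gene, from RefSeq on GRCm38.p6 (another build than the authors' mm9), 5′ to 3′ on the strand of the gene, with CpG dinucleotides, the sites of DNA methylation, in capitals. They lie at chrX:75514047-75514296 (+) for Vbp1, chrX:97377210-97377459 (-) for Eda2r, chrX:56136322-56136571 (+) for 3830403N18Rik and chrX:103483234-103483483 (-) for Xist.
Vbp1: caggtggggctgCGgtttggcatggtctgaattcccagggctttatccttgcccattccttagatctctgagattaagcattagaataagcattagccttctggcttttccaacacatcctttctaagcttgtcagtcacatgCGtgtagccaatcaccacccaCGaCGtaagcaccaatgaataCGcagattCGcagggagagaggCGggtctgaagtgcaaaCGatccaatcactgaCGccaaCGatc
Eda2r: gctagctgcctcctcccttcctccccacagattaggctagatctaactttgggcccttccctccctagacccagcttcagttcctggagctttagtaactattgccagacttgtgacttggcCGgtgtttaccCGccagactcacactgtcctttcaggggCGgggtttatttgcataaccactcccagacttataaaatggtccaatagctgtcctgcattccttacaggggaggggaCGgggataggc
3830403N18Rik: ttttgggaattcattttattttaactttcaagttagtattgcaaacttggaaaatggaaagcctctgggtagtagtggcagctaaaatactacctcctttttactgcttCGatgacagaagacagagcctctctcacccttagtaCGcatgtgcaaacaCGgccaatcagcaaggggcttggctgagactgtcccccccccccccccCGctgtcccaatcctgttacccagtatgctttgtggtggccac
Xist: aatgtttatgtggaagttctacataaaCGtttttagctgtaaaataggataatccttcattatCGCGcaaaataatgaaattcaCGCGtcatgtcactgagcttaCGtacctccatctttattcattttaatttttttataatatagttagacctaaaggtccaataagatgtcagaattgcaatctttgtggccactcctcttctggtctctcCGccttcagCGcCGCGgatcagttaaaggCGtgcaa
The Vbp1 and Xist windows hold 10 and 11 CpG dinucleotides, and those of Eda2r and 3830403N18Rik hold 4 each. The median was 9.5 over 50 promoters of 40 risen genes, 12 over 300 promoters of 235 tested genes and 6 over all 32851 mouse promoters of the table. A CTCF-type consensus, searched on both strands and given here by name alone, was in 2% of the promoters of risen genes, 2.67% of those of tested genes and 2.07% of all. A YY1-type motif, AANATGGC, also searched on both strands, was in 2%, 6.33% and 3.91%. For the risen genes each 2% is 1 of 50 promoters, too few to compare with the other sets. Neither motif occurs in the 4 windows printed, which says only that these letters are absent there.

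Vbp1, a subunit of the prefoldin chaperone, had 0.123 FPKM on Xi in WT and 48.3 FPKM in XRR_KO (log2 change 6.29), beside 120 and 82.3 FPKM on Xa. It was at 20.2 FPKM on Xi in XistpA and 2.80 FPKM in XRRa_KO. Eda2r, a receptor of the tumour necrosis factor receptor family, went from 0.391 to 46.7 FPKM on Xi (5.73), with 49.5 and 56.5 FPKM on Xa, so that in the knockout both alleles were at a similar level. 3830403N18Rik went from 0.249 to 35.6 FPKM (5.59), with 131 and 83.6 FPKM on Xa, and was higher still in XistpA at 91.8 FPKM. Rpl36a, a large-subunit ribosomal protein gene, had the largest change, from 0.057 to 43.4 FPKM (6.30), but on Xa it stood at 752 and 544 FPKM, which leaves Xi with 7.39%. Near-identical copies of it lie on other chromosomes, so its split between alleles is uncertain. These values show that a large log2 change and a large Xi contribution are different things.

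The risen genes ranged widely in their WT state. In 29 of the 43 the Xi share in WT was under 1%, in 5 it was between 1% and 10%, and in 9 it was 10% or more. In XRR_KO the share ranged from 0.638% (Pgk1) to 70.6% (Rragb, or 61.0% for Rbm41 without it), with a median of 29.5%. Of the 43, 15 had a share of 40% or more, 8 between 25% and 40%, 8 between 10% and 25%, 5 between 5% and 10% and 7 below 5%.

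Among the genes with less than 5% in WT, several came close to the level of Xa. Rragb, a Rag GTPase that relays amino acid supply to mTORC1 and a member only through its XRR_KO value, went from a listed 0 to 2.25 FPKM on Xi, while Xa had 0.816 and 0.941 FPKM. It therefore had more signal on Xi than on Xa in the knockout. Rbm41, an RNA-binding protein gene, was similar, with 2.04 FPKM on Xi from a listed 0 and 1.30 FPKM on Xa (61.0%). Both have low levels, at which a share is coarse. Cited1, a transcriptional coactivator partner of CBP and p300, went from 5.96 to 54.9 FPKM on Xi and from 115 to 66.3 FPKM on Xa (45.3%). Slc38a5, an amino acid transporter gene, reached 0.824 FPKM on Xi against 1.05 FPKM on Xa (43.9%), and the autophagy protease gene Atg4a 3.14 against 4.61 FPKM (40.5%, with a near-identical copy elsewhere). Zc4h2, a zinc finger gene, was at 38.8%, Mum1l1, a PWWP domain gene, at 38.7%, Morf4l2, a subunit of histone acetyltransferase complexes that also has a copy elsewhere, at 37.5%, and Stard8, a GTPase-activating protein gene, at 36.4%. Each of these 4 had 1.45% or less in WT.

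Other genes that were silent in WT gained a trace. Cox7b, a subunit of respiratory complex IV, went from 0.0293 to 11.8 FPKM on Xi but had 213 FPKM on Xa (5.24%). The proton pump accessory gene Atp6ap2 had 1.23 FPKM on Xi and 61.0 on Xa (1.98%), the tumour antigen gene Trap1a 1.34 and 73.3 FPKM (1.80%), and the augmin subunit gene Haus7 0.562 and 24.4 FPKM (2.26%). Hnrnph2, an RNA-binding protein gene with a copy elsewhere, stood at 2.48% and the ubiquitin ligase gene Pja1 at 3.45%, both from a listed 0 and both near the size rule. Highly expressed genes can pass the size rule with a small share, whereas a gene at 1 FPKM on Xa cannot. With the tested genes split into 3 groups of 90 by their WT level on Xa, 10, 10 and 23 rose on Xi, from the lowest to the highest group.

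**Figure D2:**
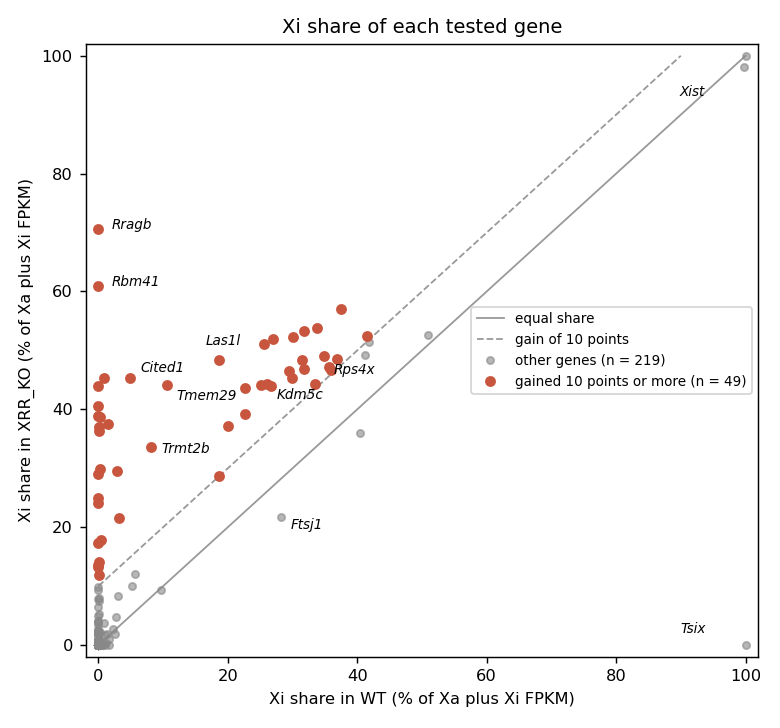
Xi share of each tested gene in WT (horizontal) and XRR_KO (vertical), in percent of Xa plus Xi FPKM, for 268 genes with a value in both columns. The 49 genes in red gained 10 points or more and lie at the left edge, silent in WT, or in a cloud that reaches 41.5% in WT (Eif2s3x); Tsix sits at the lower right.

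The Xi share compares alleles within a column and so does not depend on scaling between columns. It gained 10 points or more for 49 of 268 genes (18.3%) and lost as much only for Tsix (0.373%). Of the 49, 30 also passed the size rule on Xi and 19 did not. Among those 19 were genes with sizeable Xi expression in WT. Tfe3, a transcription factor of lysosomal genes, went from 29.4% to 46.5%. Cstf2, a polyadenylation factor gene, went from 31.5% to 48.4%, and Ercc6l from 26.6% to 44.0%. Trmt2b, a tRNA methyltransferase gene, went from 8.18% to 33.6%, with 0.771 FPKM on Xi and 1.52 on Xa in XRR_KO. Ccdc120 went from 22.7% to 39.2% and the zinc finger gene Zfp182 from 25.1% to 44.1%. Nkap, a transcription and splicing regulator gene, went from 35.9% to 46.7%, and the centromere gene Cenpi from 36.9% to 48.5%. The RNA helicase gene Ddx3x went from 35.6% to 47.1% and the ribosomal Rps4x, which has near-identical copies, from 34.8% to 49.1%. In a few the gain came with little change on Xi. The complex I gene Ndufa1 went from 33.4% to 44.3% while Xi had 117 and 100 FPKM and Xa 232 and 126 FPKM. The escape gene 5530601H04Rik went from 29.9% to 45.3% with 0.646 and 0.658 FPKM on Xi.

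Genes with at least 25% on Xi numbered 27 in WT and 46 in XRR_KO, and at 40% or more 8 and 33. At 50% or more there were 4 and 13. Over all tested genes but Xist and Tsix, Xi carried 9.10% of the summed FPKM in WT and 18.9% in XRR_KO. Also without Rps4x, which has near-identical copies and the largest Xi signal, the figures were 4.04% and 11.5%. Without any gene with a near-identical copy on another chromosome the figures were 6.39% and 15.0%.

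Genes expressed on Xi were also looked at as a set picked by the Xi share in other columns, within the tested genes, whose filter on the summed level used WT and XRR_KO too. In the XRRb_XaKO and XRRc_XaKO columns of another table, 27 genes other than Xist and Tsix had a share of 10% or more in both. These lines carry a deletion labelled as on Xa and are not untreated. The median Xi share of the 27 was 31.7% in WT and 48.4% in XRR_KO. The share was higher in XRR_KO for 24 genes, lower for Ftsj1 (28.3% and 21.7%) and Wdr45 (40.5% and 36.0%), and 100% in both for Gm6568. Of the 27, 23 lay between 40% and 60% in XRR_KO and 5 in WT. Their Xi level changed by a median of 0.77 and their Xa level by -0.11, and 8 of the 27 passed the size rule on Xi. A gain in share of 10 points or more was seen for 21 of them (77.8%, beside 18.3% of all genes with a share). In the 4 other columns the same genes had median shares of 36.9% (XRRb_XaKO), 34.0% (XRRc_XaKO), 33.5% (Rad21 degron with DMSO) and 24.5% (Ctcf degron with DMSO). The first 2 of these were used to pick the genes. The XRR_KO median was above all 5, and XistpA and XRRa_KO, which share the table and its WT column, had 49.4% and 40.4%.

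**Figure D3:**
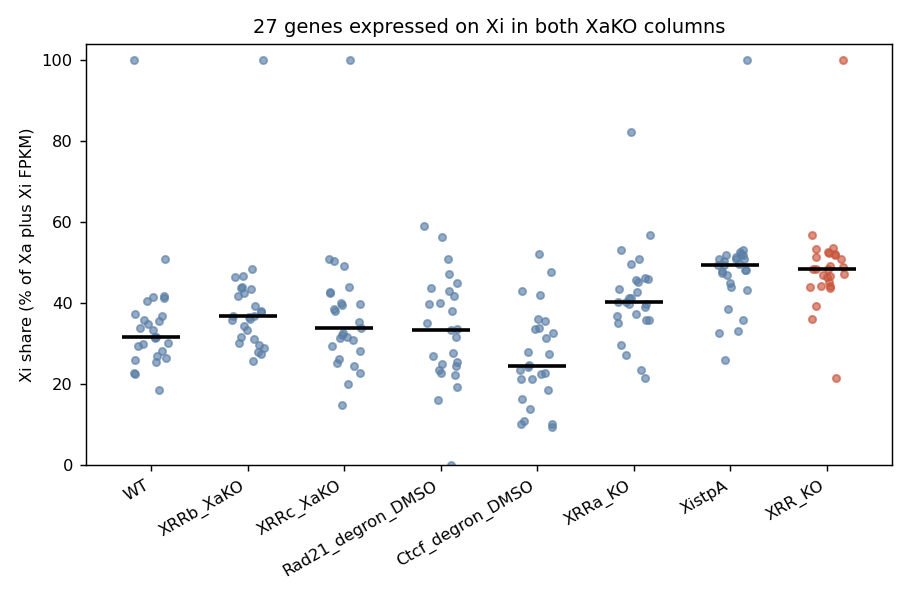
Xi share in percent of the 27 genes that had 10% or more in both XaKO columns, in 8 merged columns of 4 separately made tables; each point is a gene and the black bar is the median. XRR_KO (red) has a median of 48.4%, against 24.5% to 36.9% in the 5 columns on the left.

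The genes that were below 10% in both XaKO columns numbered 217. Of these, 31 rose on Xi in XRR_KO (14.3%, beside 15.9% of all tested genes) and 20 gained 10 points or more (9.26% of the 216 with a share in both, beside 18.3%). The share was higher in XRR_KO for 94, lower for 25 and equal for 97, while Xlr3a had none in XRR_KO. The median share stayed at 0 in both columns. The highest share in this set was 5.20% in WT and 45.3% in XRR_KO.

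Columns of the other tables show how far the share of a gene varies among cells not labelled XRR_KO. Of the 43 risen genes, 42 had 1 FPKM or more in at least 1 of the XRRb_XaKO, XRRc_XaKO, Rad21 DMSO and Ctcf DMSO columns. In all 42 the share in XRR_KO was above the highest of those columns. Since the XRR_KO column chose the genes, this is a description. Over all 267 tested genes with such a value, XRR_KO was above the highest of them for 115 and WT for 25. The gap was modest for some, such as Gm5643 (8.26% against 5.81%) and Mmgt1 (51.4% against 44.1%). Tceal8, a member of a family related to transcription elongation factor, was at 29.5% in XRR_KO and 2.91% in WT, but ranged from 0.0347% to 17.8% over the 4 other columns. In XRRa_KO it was at 28.75%, with 71.9 FPKM on Xi beside 47.4 FPKM in XRR_KO. Among the 49 genes with a gain in share, 3 were not above the other columns, namely Ccdc22 (37.3% against 38.4%), Pbdc1 (28.7% against 29.3%) and 5530601H04Rik (45.3% against 56.3%). XistpA and XRRa_KO were left out of these comparisons with the highest column. Some risen genes had a higher share in them than in XRR_KO, and others a lower one.

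By function, the rises touched many groups and filled none. Of 9 tested genes known to escape inactivation in the mouse, Kdm5c, Utp14a and 1810030O07Rik rose and Xist fell, 7 gained 10 points or more, and the median share was 29.9% in WT and 47.1% in XRR_KO. The lists below were chosen with earlier results known, and their counts are read against the 15.9% of all tested genes. Among 9 lysosome and autophagy genes, 3 rose on Xi. Lamp2, a lysosomal membrane protein gene, went from a listed 0 to 5.70 FPKM (13.5%), and Atp6ap2 and Atg4a are given above. Atp6ap1, the other proton pump accessory gene, had a listed 0 and 0.230 FPKM. Of 19 mitochondrial genes, Cox7b and Fundc1, a mitophagy receptor gene (0.0188 to 3.03 FPKM), rose. Ndufb11, another complex I gene, had 0.0744 and 0.0724 FPKM on Xi beside 189 and 131 FPKM on Xa. Of 20 metabolic enzyme genes, the glycolytic Pgk1 and the site-2 protease gene Mbtps2 rose, and Hprt and Idh3g were listed at 0 on Xi in both columns. Sat1, of polyamine breakdown, had 406 and 211 FPKM on Xa and 0.0458 FPKM on Xi in XRR_KO. In the ribosome and translation list Rpl36a alone of 7 rose. Rpl10 had 0.605 and 0.494 FPKM on Xi beside 2387 and 1548 FPKM on Xa. Eif1ax, an initiation factor gene, had 253 and 210 FPKM on Xa and 0.134 FPKM on Xi in XRR_KO, and Eif2s3x, another, had 20.0 and 34.3 FPKM on Xi (41.5% and 52.5%).

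RNA processing genes had 5 rises and 1 fall among 24. Las1l, needed for ribosomal RNA processing, went from 2.12 to 9.84 FPKM on Xi (18.6% to 48.4%). Upf3b, of nonsense-mediated decay, went from 4.37 to 11.4 FPKM and Utp14a, of the small subunit processome, from 5.94 to 13.5 FPKM. Rbm41 and Hnrnph2 completed the rises, and the fall was Ftsj1. Nono, Rbm3 and Dkc1, which are among the highest of this list on Xa, had 0.149 FPKM or less on Xi in XRR_KO. Of 27 chromatin and transcription genes, Morf4l2, Kdm5c and Yy2 rose. Kdm5c, a histone H3K4 demethylase gene, went from 0.763 to 2.80 FPKM on Xi and from 2.17 to 3.53 FPKM on Xa. Hmgn5 and Smc1a had 0.0341 FPKM or less on Xi in both columns. Kdm6a, an escape gene in other mouse cells, Atrx and Ogt were listed at 0 on Xi in both columns. Exons of the transcription factor gene Yy2 overlap those of Mbtps2 on the same strand, so their values (1.21 to 3.40 and 2.03 to 4.65 FPKM on Xi) may share reads.

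Of 16 genes in the extraembryonic and lineage list, 6 rose on Xi, and several of these were put on the list because they vary in these data. Besides Cited1, Eda2r, Mum1l1 and Trap1a they were Xlr, from a listed 0 to 2.03 FPKM beside 49.8 FPKM on Xa, and Amot, an adaptor of Hippo signalling, from 0.0114 to 0.765 FPKM. Reads of Xlr may be shared with other members of its family on the X, so its Xi value is uncertain. In the Bex and Tceal family 1 of 5 rose, Tceal8, from 4.81 to 47.4 FPKM. Wbp5, of the same list, had 200 and 239 FPKM on Xi. Ngfrap1 had 510 and 397 FPKM on Xa and 0.270 and 0.147 FPKM on Xi. Bex1, at 422 and 285 FPKM on Xa, had only 0.138 FPKM on Xi, and Bex2 went from 0.569 to 0.138 FPKM, inside the size rule. Gprasp1, a receptor-sorting protein gene, rose from 0.0846 to 0.835 FPKM, and was 1 of 6 of its family to do so; Armcx5, whose exons overlap it, missed the size rule by a little (0.99), and Bhlhb9 and Armcx1 had 0.0288 FPKM or less on Xi. Of 16 genes of membrane traffic and protein folding, 4 rose. They were Vbp1, Mmgt1 of the endoplasmic reticulum membrane complex (13.2 to 27.9 FPKM), Sh3bgrl (0.0121 to 1.43 FPKM) and Rp2h, a GTPase-activating protein gene of ciliary traffic (a listed 0 to 1.17 FPKM). Sh3bgrl was higher on Xi in XRRa_KO, at 3.73 FPKM. Plp2 had 236 and 188 FPKM on Xa and 0.0786 FPKM on Xi in XRR_KO. Uxt, a prefoldin-like gene, was listed at 0 on Xi in both columns. Of 17 signalling and cytoskeleton genes, Stard8, Eda2r and the membrane scaffold gene Mpp1 (a listed 0 to 2.64 FPKM) rose. The actin crosslinker gene Flna had 0.0168 FPKM on Xi in XRR_KO. In the ubiquitin list Pja1 was the only rise among 13, and Usp9x had 0.0172 and 0.327 FPKM on Xi. Ube2a, Uba1, Cul4b and Brcc3 had 0.132 FPKM or less on Xi in XRR_KO. Exons of Mpp1, Morf4l2 and Utp14a overlap those of a neighbour on the opposite strand, and those of Tmsb15b2 overlap related thymosin genes on the same strand.

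The rises not placed in a list above were Zdhhc9, a palmitoyltransferase gene, from a listed 0 to 1.44 FPKM, Mospd1 from 0.0311 to 1.80 FPKM, 2210013O21Rik from a listed 0 to 2.21 FPKM, and Tmsb15b2, a thymosin gene, from a listed 0 to 1.74 FPKM, together with 3830403N18Rik, Rragb, Slc38a5, Zc4h2 and Haus7, given above. Tmem29 went from 0.241 to 1.12 FPKM, Gm5643, which has copies elsewhere, from 0.503 to 1.61 FPKM, and the escape gene 1810030O07Rik from 3.52 to 7.90 FPKM. Just outside the size rule lay Atp7a (0.95), Tfe3 (0.95) and Renbp (0.93), next to Armcx5, and just inside it Pja1 (1.01), Mbtps2 (1.02), Mmgt1 (1.05), 1810030O07Rik (1.06) and Gm5643 (1.08).

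XistpA and XRRa_KO were measured against the same WT column, so their values are set beside those of XRR_KO without a comparison of the lists. XistpA had 33 rises on Xi and XRRa_KO 16. The share of Cited1 was 45.3% in XRR_KO, 47.9% in XistpA and 19.4% in XRRa_KO. Stard8 stood at 36.4%, 41.4% and 3.27%, and Zc4h2 at 38.8%, 38.5% and 1.33%. Lamp2 was at 13.5%, 3.59% and 0.726%. Rragb and 2210013O21Rik were listed at 0 on Xi in XistpA, and were at 70.6% and 13.2% in XRR_KO and at 22.2% and 3.42% in XRRa_KO. Zdhhc9 was at 24.1% in XRR_KO, 4.06% in XistpA and listed at 0 in XRRa_KO, while Fundc1 was higher in XistpA (27.6%) than in XRR_KO (14.2%). Pgk1 had 2.05 FPKM on Xi in XRR_KO and 37.1 FPKM in XistpA.

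Along the chromosome, rises were found in every section. Gene order was taken by name from RefSeq genes of GRCm38.p6, which placed 269 of the 270 tested genes. Of 135 tested genes proximal of the Dxz4 repeat 11.9% rose on Xi, of 39 between Dxz4 and Xist 15.4% (6 genes), and of 93 distal of Xist 22.6%, against 15.9% over all. Gains in share of 10 points or more numbered 19, 8 and 22. Genes other than Xist and Tsix with a WT share of at least 10% numbered 16, 4 and 11. Neighbouring genes behaved unequally. Of the 43 risen genes 19 stood next to another risen gene in the order of tested genes, in 8 pairs and 1 run of 3 (Mospd1, Xlr and 3830403N18Rik), and the other 24 had no risen neighbour. Rpl36a and Hnrnph2 rose while Gla, which lies between them, had 0.105 FPKM on Xi. Mum1l1 and Trap1a stood side by side at 38.7% and 1.80%.

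**Figure D4:**
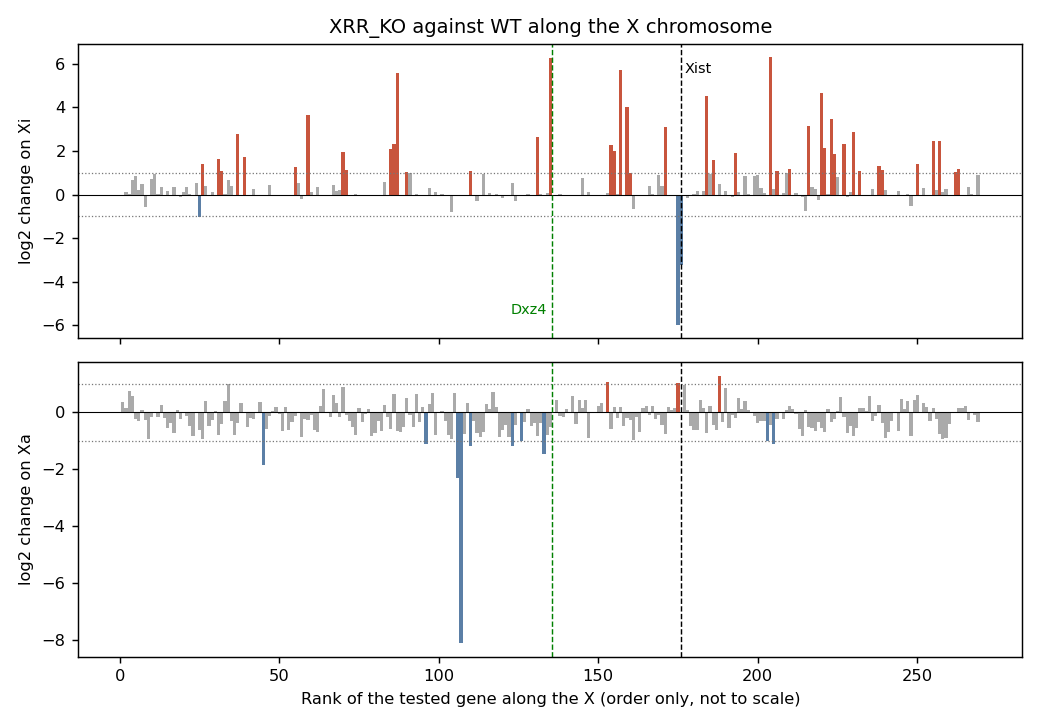
Change in XRR_KO against WT on Xi (top) and Xa (bottom), as the difference of log2(FPKM + 0.5), for 269 tested genes in their order along the X; red bars rose and blue bars fell by 1 or more (dotted lines). Rises on Xi occur in all sections, whereas Xist and Tsix form the deep downward bars beside the Xist line and Xlr3a that on Xa.

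On Xa, 3 genes rose (1.11%) and 10 fell (3.7%), and most genes were lower in XRR_KO. The median Xa change was -0.19, with quartiles of -0.56 and 0.14 (169 genes below 0, 100 above), and summed Xa FPKM was 13910 in WT and 9714 in XRR_KO. Changes on Xa went with both transcript length and WT level. With the genes in 3 groups of near equal size by transcript length, the median Xa change was -0.60 in the shortest group (419 to 2553 bases), -0.18 in the middle group and 0.14 in the longest (4340 to 17950 bases). Spearman's rank correlation between length and Xa change was 0.61 over 269 genes, which share the same libraries, against 0.25 for XistpA and 0.11 for XRRa_KO with the same WT column. With the WT level on Xa the same measure was -0.54 over 270 genes, and the median Xa change was 0.09, -0.16 and -0.54 in 3 groups of 90 from the lowest to the highest level. The WT level is itself subtracted in the change, which favours a negative value, so the relation with WT level is a description only. The part of either relation in the Xa and Xi calls was not tested. Of the 10 falls, 7 were in the shortest group and none in the longest. Centred on the median Xa change of their own length group, a setting added after the data were seen, 4 genes rose and 5 fell on Xa, and 51 rose on Xi. Rises on Xi numbered 23, 11 and 9 from the shortest to the longest group.

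**Figure D5:**
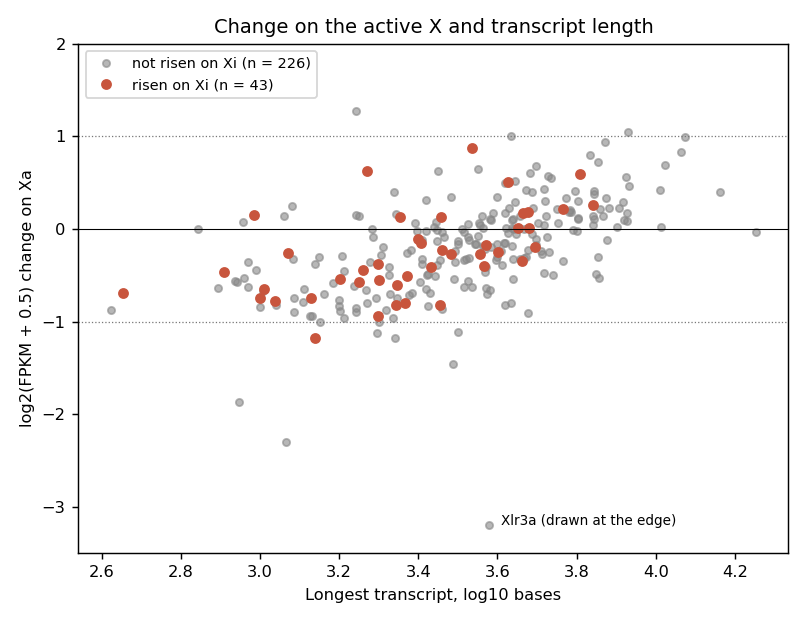
Change on Xa in XRR_KO against WT, as the difference of log2(FPKM + 0.5), by the length of the longest GENCODE M21 transcript on a log10 axis, for 269 genes; red points rose on Xi and dotted lines mark the size rule. The cloud climbs from left to right, with medians of -0.60, -0.18 and 0.14 in the 3 length groups; Xlr3a, at -8.11, is drawn at the lower edge.

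The deepest falls on Xa were in a multi-copy family. Xlr3a, of the lymphocyte-regulated Xlr family, was at 138 FPKM on Xa in WT and listed at 0 on both alleles in XRR_KO, with 83.0 and 127 FPKM in XistpA and XRRa_KO. It was also listed at 0 on Xa in the Rad21 DMSO and Ctcf DMSO columns. Xlr4a, a member only through its WT value, went from 1.96 FPKM to a listed 0 and was at 0 in the same 2 columns. The filter thus favoured a fall for Xlr4a. Members of this family share sequence, so how reads were split among them is uncertain, and a listed 0 can be a failed estimate. Timp1, an inhibitor of metalloproteinases, went from 3.38 to 0.564 FPKM (-1.87), and was at 1.23 and 12.5 FPKM in XistpA and XRRa_KO. Mtcp1 went from 6.65 to 2.103 FPKM (-1.46).

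The other falls on Xa passed the size rule narrowly and lost it after centring on the median Xa change. They were Haus7 (55.8 to 24.4 FPKM), Atp6ap1 (94.4 to 41.5 FPKM), 4933402E13Rik (1.89 to 0.595 FPKM), the lysosomal galactosidase gene Gla (11.04 to 4.85 FPKM), the mitochondrial import gene Timm8a1 (160 to 79.4 FPKM) and Lage3, of a tRNA-modifying complex (76.7 to 38.0 FPKM). In the Rad21 DMSO and Ctcf DMSO columns, which were normalised in tables of their own, Haus7 had 22.9 and 22.3 FPKM on Xa, Atp6ap1 31.2 and 37.6, and Lage3 30.9 and 39.8. In the XRRb_XaKO and XRRc_XaKO columns the same 3 genes had 68.2 and 60.2, 65.6 and 63.0, and 88.6 and 79.5 FPKM. The rises were Itm2a, a membrane protein gene and a member only through its XRR_KO value (1.23 to 3.68 FPKM), the Wnt pathway regulator Amer1 (1.52 to 3.68 FPKM) and Tsix. Itm2a varied widely on Xa among cells not labelled XRR_KO. It had 7.14 FPKM in XRRb_XaKO, 0.206 in XRRc_XaKO, 0.958 in Rad21 DMSO, 0.152 in Ctcf DMSO and 0.07 in XistpA. Haus7 was the only gene that fell on Xa and rose on Xi.

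The 2 alleles together are described next; a gene whose silent Xi reaches the level of an unchanged Xa gains only about 1 on the log2 scale, so few could pass the size rule. For the 43 risen genes the median change of Xa plus Xi FPKM was 0.11, against -0.08 for all tested genes. Xi chose these genes and is part of the sum, so a higher median was favoured by the choice and is a description only. The sum was higher in XRR_KO for 24 of them, and Xa was lower in XRR_KO for 30 of them and higher for 13. Their median Xa change was -0.27, against -0.16 for genes that did not rise on Xi. The summed level passed the size rule upward for 3 of the 43, namely Rragb (1.49, a member only through its XRR_KO value), Zdhhc9 (1.24) and Eda2r (1.04), and downward for Haus7 (-1.15). Kdm5c came close (0.99). For Cited1 the 2 alleles together differed by 0.01 on the log2 scale although Xi rose by 3.10 and Xa had -0.78. For 3830403N18Rik and Cox7b the sum was lower in XRR_KO (-0.14 and -0.67).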

How the data were processed

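RNA was made into Smart-seq2 libraries from polyadenylated RNA, without strand, per the labels' protocols. StringTie 2.1.1, HISAT2 2.2.0 and Trim Galore 0.6.4 are listed as tools, and mm9 as the build, in the submitters' processing notes. Steps for assigning reads to alleles and merging samples are not given in the sources used here. Allelic FPKM values were deposited by the authors, with 1 column for each group and allele. The planned limma test was therefore not run, and calls rest on a change of 1 in log2(FPKM + 0.5) or of 10 points of Xi share. FPKM values hold no depth.

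The members, gene lists and tests were chosen with earlier results of these data known, and 1 misplaced gene was taken off the mitochondrial list after values were seen. Named by rule were genes past the size rule on Xi or Xa, genes whose share moved by 10 points, genes nearest to Xist, 6 preset genes (4933407K13Rik was not tested), the 5 genes on either side of the size rule and up to 4 members of each list with the highest FPKM; further examples were chosen after their values were seen. Some genes the rule names are not reported here. Near-identical copies were sought with minimap2 2.31, which aligned X-linked GENCODE M21 transcripts to transcripts of every other chromosome (95% identity over 50% of the length), and 23 of 269 genes with a transcript had one. Copies on the X itself, as in the Xlr family, were not sought. Software: pandas 2.3.3 with numpy 2.4.6 under Python 3.11.15; plots by matplotlib 3.10.9.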

Additional observations from a re-analysis of the deposited data

How the results depend on the processing

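No paired analysis was possible because the columns are merged over samples, and no replicate could be left out. Of the 43 genes risen on Xi, 28 kept the call under every one of 9 settings that tested them. The number of rises was 69 with a pseudocount of 0.1 and 28 with a size rule of 1.5; under the other 7 settings it lay between 32 and 54. Falls on Xi numbered 6 with a pseudocount of 0.1. Rises on Xa numbered 1 with a pseudocount of 1, 5 without a filter, 1 with a filter of 5 FPKM, 6 with columns scaled to equal median Xa FPKM, 7 after centring on the median Xa change, 4 after centring within length groups and 0 with a size rule of 1.5. Falls on Xa numbered 4 after centring on the median, 5 after centring within length groups and 3 with a size rule of 1.5. The balance of rises and falls on Xa turned around after centring on the median, while rises outnumber falls on Xi under each of these settings. Most genes had too little Xi signal in WT to be called fallen, so the balance on Xi is a description only. Gains in share numbered 24 at 20 points. Genes at 10% or more on Xi in XRR_KO numbered 92 when no filter was applied, against 58. The summed Xi share in XRR_KO, 18.9%, was 19.1% with a filter of 5 FPKM, 15.0% when genes with near-identical copies were left out, 18.2% without known escape genes and 11.5% without Rps4x. No call changed sign. The cause of these differences was not tested beyond what each setting removes. Depth is unknown, so how far low Xi values can be resolved cannot be stated.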

Other observations

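Among the genes below 1 FPKM on average, 1 passed the size rule on Xi. Akap14, an A-kinase anchoring protein gene, had 0.0202 FPKM on Xi in WT, 0.678 in XRR_KO, 0.803 in XistpA and 0.0941 in XRRa_KO. Its Xa values were 0.0605, 0.351, 0.0688 and 0.0314 FPKM in the same order. It lies beside Nkap, whose exons overlap its own on opposite strands, and reads from the shared bases cannot be assigned without strand. On Xa, Aff2 (0.222 to 1.02 FPKM) and Gm9159 (0.0946 to 0.721 FPKM) rose, and Mtm1 (1.003 to 0.161 FPKM), Tsga8 (1.16 to 0.0534 FPKM) and Tspan6 (0.635 to 0.0306 FPKM) fell.

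Usp9x, a deubiquitinase gene with a long transcript, was next to the size rule on Xa, at 7.18 FPKM in WT and 14.8 FPKM in XRR_KO (1.00 after rounding, below 1 before it), with 7.31 and 7.06 FPKM in XistpA and XRRa_KO.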
